A study of Mus musculus with 4 samples.

Results

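The genes described here are the chemokines and chemokine receptors of the mouse outside the Cxcr3 axis, measured in lung RNA on Affymetrix arrays. They are the genes whose symbol begins with Ccl, Ccr, Cxcl, Cxcr, Cx3cl, Cx3cr, Xcl, Xcr or Ackr and a digit, without Cxcl9, Cxcl10, Cxcl11 and Cxcr3. In all 50 of the 18193 genes that the array names with 1 symbol met this rule, through 80 probe sets, and each gene was read from its probe set with the highest mean over the arrays. They were 30 ligands, 16 signalling receptors and 4 scavenging receptors. Another 4 probe sets whose annotation joins several genes, among them Ccl19, Ccl21a and Ccl27a, name no single gene and were left out.

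The study compared 2 wild type lungs with 2 lungs labelled IKKa floxed, in which the gene of the kinase IKKα carries sites that Cre recombinase can cut. All mice were of strain B6/J, and both groups received an adenovirus carrying Cre through the trachea 4 months before the lungs were taken, so exposure to the virus is shared. The sources used here do not give the promoter that drives Cre, the share of cells reached, the number of floxed alleles or the age of the mice. They do not state whether each array stands for a separate mouse, so the p-values cover the spread of these samples alone, and that spread may be technical.

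Chemokines are small secreted proteins that guide white blood cells along gradients and act through receptors coupled to G proteins. Inflammatory chemokines are made on demand by macrophages, lymphocytes, epithelium and endothelium, often under NF-κB, the transcription factor family that IKK kinases activate. Homeostatic chemokines are made steadily and place lymphocytes in lymphoid tissue or mucosa. Atypical receptors bind chemokines without the usual signal and remove them.

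Intensities are linear, arbitrary units scaled to the same trimmed mean on every array, and a level of one gene cannot be set against that of another because each has its own probes. Array medians lay between 32.1 and 34.3. Xist, the RNA of the silenced X chromosome, stood at 31.8 and 22.9 on the wild type arrays and at 4246 and 4629 on the floxed arrays, while Y-linked Eif2s3y, Kdm5d and Uty were lower on the floxed arrays (log2 fold change -4.69, -3.03 and -3.38), so genotype and sex cannot be told apart in any value below. The 3′ to 5′ ratio of Gapdh, which climbs as RNA degrades, stood at 1.18 and 1.10 for the wild type arrays but 1.44 and 1.68 for the floxed arrays. The same ratio of actin was 2.65 and 2.46 for wild type and 2.67 and 2.77 for floxed arrays. The part of RNA quality in the results was not tested. Markers of lung were present on all arrays, with summed intensities of 11 alveolar epithelial markers between 56184 and 68032. The deletion itself was not checked here.

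More of these genes stood above the wild type level in the floxed lungs than below it, yet few passed the test. The difference of group means of log2(intensity + 16), called log2 fold change, was tested with limma for the 37 members whose mean intensity reached the filter of 21.0. With a Benjamini-Hochberg adjusted p under 0.05 over 12735 genes as threshold, Ccl3 and Ccl5 rose and Cxcl17 fell, which is 2 of 37 higher and 1 of 37 lower. Of all genes tested, 1.01% were called higher and 0.762% lower, together 225 genes or 1.77%. At an unadjusted p under 0.05 there were 21 of the 37 members, against 14.3% of all genes. The members' median log2 fold change was 0.36, against 4.73e-05 over all genes, and 31 of 37 lay above 0, against 6369 of the 12735 genes. A difference of at least 1.5-fold was reached by 10 members upward and 2 downward, against 2.38% and 2.15% of all genes. Ccl3, Ccl2 and Xcl1 reached the filter only through their floxed mean, and a gene kept for that reason is bound to be higher there. Among the 34 members with both means above the filter, 28 lay above 0, against 6169 of 12296 genes of that kind. Of these 34, 8 were higher and 2 lower by at least 1.5-fold, but that share among genes of that kind was not computed.

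Which members passed depended on the fit. Where 1 array is left out, its group has a single array, whose spread is assumed to be that of the other group with limma's prior, so these fits show which array a value rests on and are no support for a call. Without floxed replicate 2 there were 8 (Ccl3, Ccl4, Ccl5, Ccl6, Ccl8, Ccl11, Cxcl17 and Cxcr6, against 1.97% of all genes), and without floxed replicate 1 there were 4, with Ccl2 added to the 3 (1.53%). Without wild type replicate 2, Ccl3 and Ccl5 passed (1.14%), and without wild type replicate 1, Ccl3, Ccl5 and Ccl20 (1.58%). Ccl3 alone passed in the unfiltered fit (0.379%) and at a pseudocount of 1 (0.864%). Ccl20 joined with quantile normalization (1.81%), with a pseudocount of 64, where Ccl6 passed too (2.84%), and with the mean of all probe sets, where Ccl2 and Ccl4 passed too (1.92%). With an intensity trend and robust prior, Ccl3, Ccl6, Ccl20 and Cxcl17 passed (3.05%). A filter at the 50th percentile left 19 members to test, of which Ccl5 and Cxcl17 passed (2.50%). A filter on the mean log2 level, added after the data were seen, gave Ccl5, Ccl20 and Cxcl17 (1.74%), and a block for the replicate number gave the same 3 as the fit without it (1.55%).

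Both floxed arrays lay above both wild type arrays for 24 of the 37 members, and below them for 6. Over all genes tested these shares were 23.6% and 22.2%. Of the 34 with both means above the filter, 21 stood above, and the share among all genes of that kind was not computed. Over all 50 members with no filter, 29 stood above and 8 below, against 21.9% and 20.7% of all genes in the table. Fewer cells of a type and less RNA per cell cannot be told apart in whole lung, which holds for every gene named here.

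**Figure D1:**
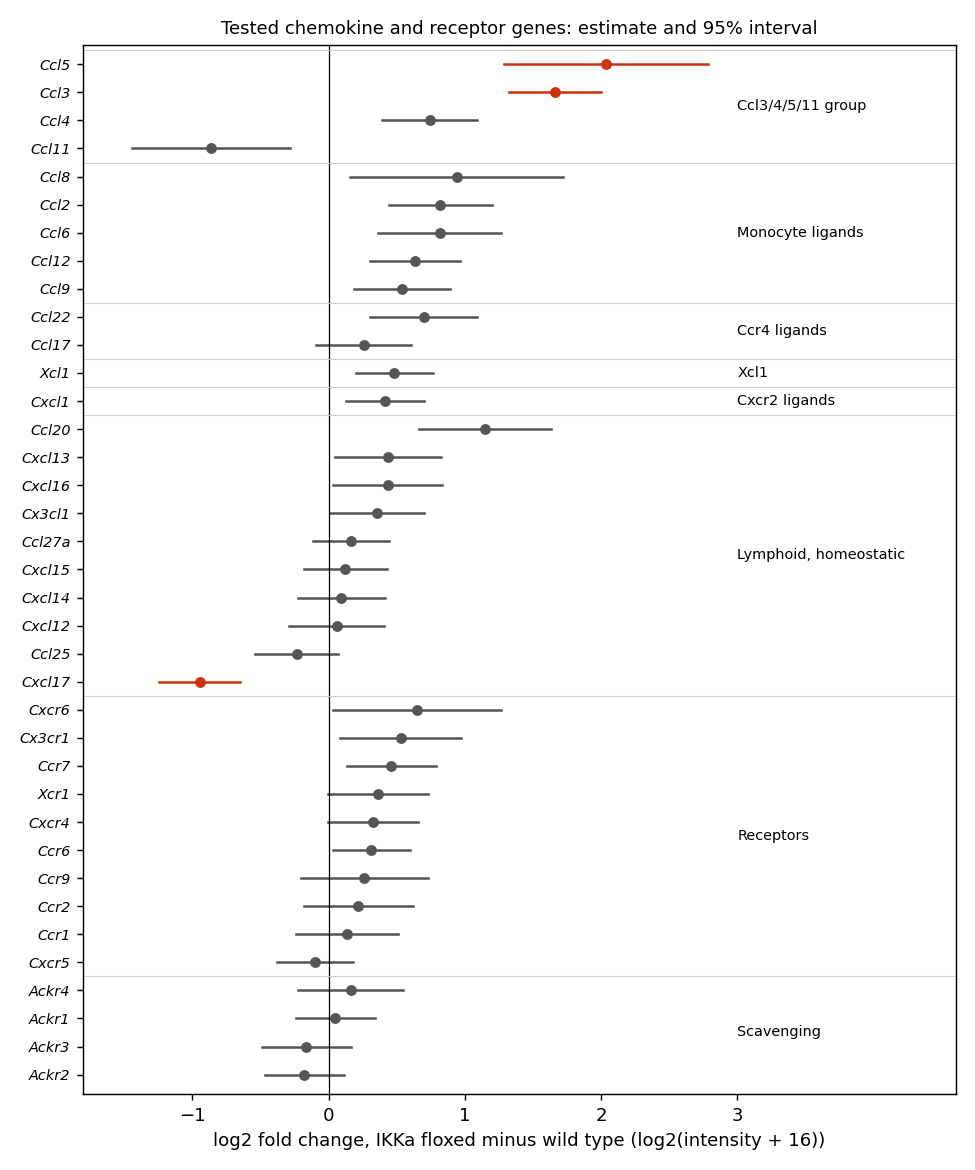
Log2 fold change of the 37 tested genes with its 95% interval (limma; 2 against 2 arrays), grouped by role, on the log2(intensity + 16) scale. Ccl5, Ccl3 and Cxcl17, drawn in red, passed the adjusted threshold of 0.05. The monocyte ligands all lie to the right of 0, and the scavenging receptors straddle it.

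**Figure D2:**
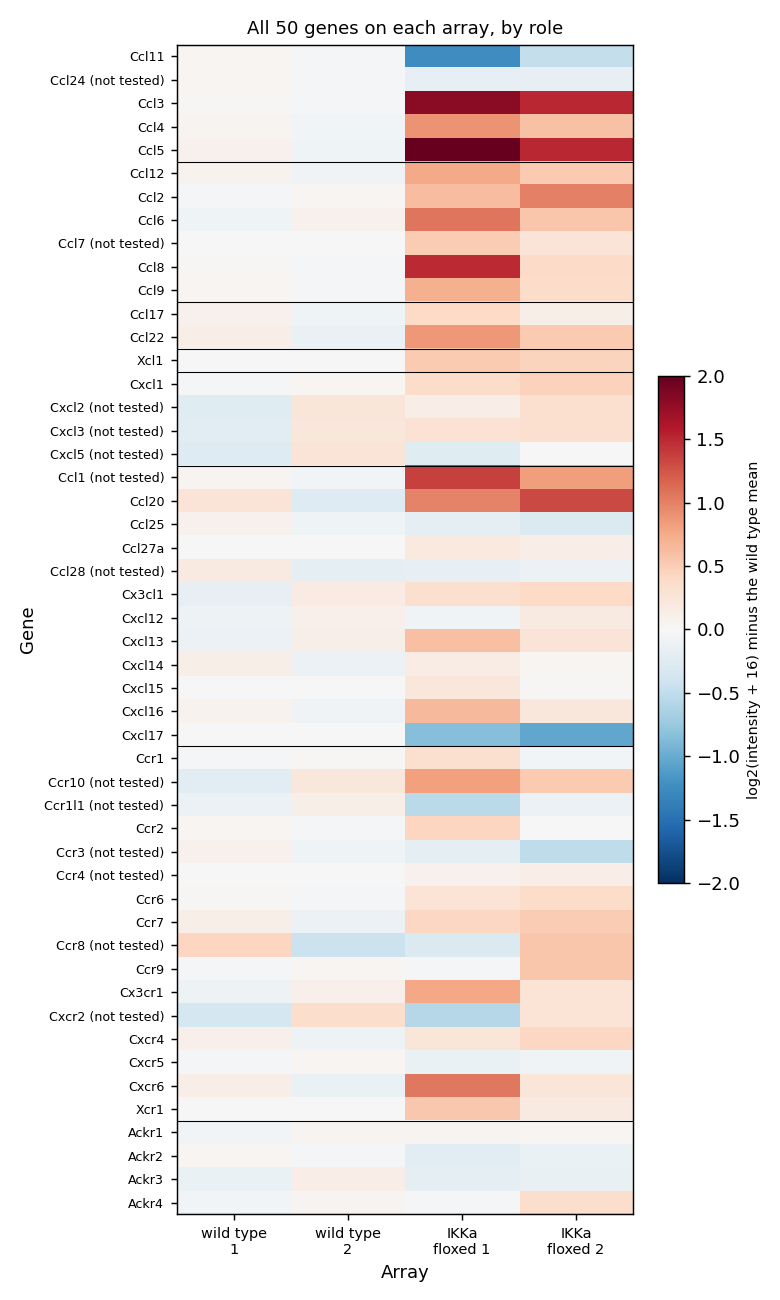
Each of the 50 genes on each array, as log2(intensity + 16) minus the mean of the wild type arrays, in rows ordered by role. Colours end at 2 and -2, beyond which floxed replicate 1 lies for Ccl5. Red cells gather in the CC ligands of both floxed arrays, and floxed replicate 1 is the redder of the pair for Ccl8, Ccl6 and Cxcr6.

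Among the inflammatory CC ligands that draw T cells, natural killer cells, macrophages and eosinophils, Ccl3 and Ccl5 rose, Ccl4 was higher without passing, and Ccl11 was lower without passing. Ccl3, a chemokine of activated macrophages and lymphocytes, read 3.57 and 2.81 on the wild type arrays and 51.2 and 38.8 on the floxed arrays. The groups lay far apart for Ccl3, near the bottom of the scale in wild type. Its log2 fold change was 1.66 ± 0.14 SE (95% interval 1.32 to 2.00, limma adjusted p = 0.00378). That size depends on the pseudocount, being 3.45 with 1 and 0.70 with 64. Ccl3, tested only through its floxed mean, also passed in the fit with no filter (adjusted p = 0.0301), but a filter on the mean log2 level, or one at the 50th percentile, would not have tested it.

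Ccl5, made by cytotoxic lymphocytes and by many other cells after activation, read 185 and 163 in wild type, against 1102 and 524 in floxed lungs. Both floxed arrays exceeded the wild type arrays, and they differed from each other more than the wild type arrays did. The group means were 174 ± 15.2 and 813 ± 409 (SD, n = 2 each). Ccl5 rose by 2.03 ± 0.31 SE on the log2 scale (4.10-fold, adjusted p = 0.0320), by 1.51 without floxed replicate 1 and by 2.56 without floxed replicate 2. It lost the call without the filter (0.132), at a pseudocount of 1 (0.10) and under an intensity trend plus robust prior (0.0768).

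Ccl4, the close relative and chromosomal neighbour of Ccl3, read 45.8 and 41.2 against 94.6 and 73.3. The groups did not overlap, but its log2 fold change of 0.74 ± 0.15 SE missed the threshold (adjusted p = 0.0685), which it passed without floxed replicate 2 (0.0405). Ccl11, an eotaxin that attracts eosinophils, went the other way, with 51.6 and 47.5 in wild type, against 11.6 and 31.1 in floxed lungs. Its log2 fold change was -0.86 ± 0.24 SE (adjusted p = 0.171), and it was -1.25 without floxed replicate 2 and -0.48 without floxed replicate 1. The former value passed (adjusted p = 0.0128), with the spread taken from the wild type pair. The other eotaxin, Ccl24, was below the filter, with 4.16 and 3.05 against 1.52 and 1.4995.

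**Figure D3:**
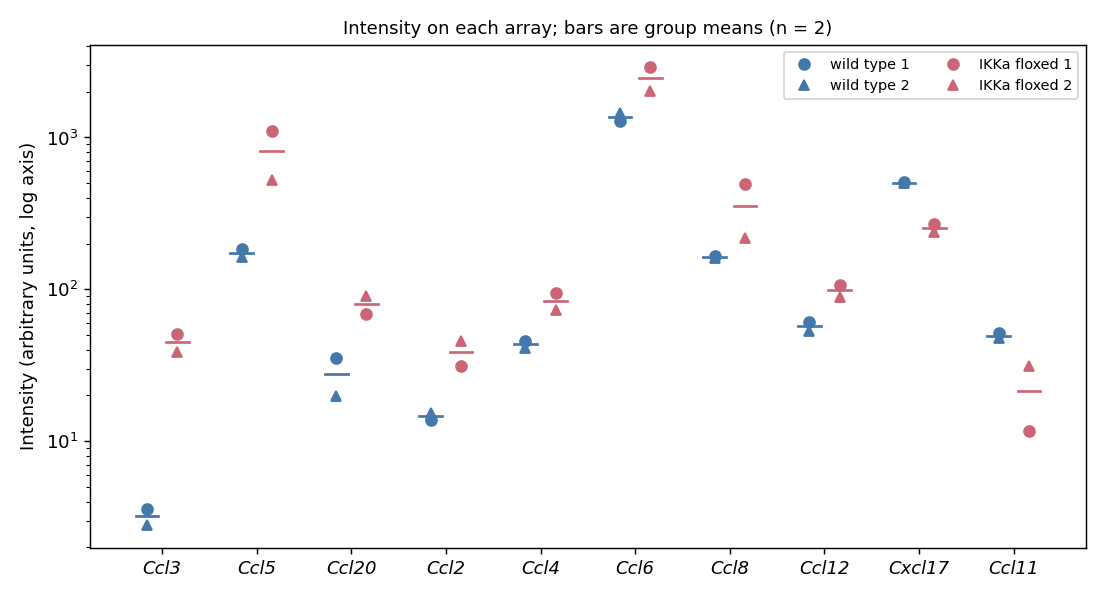
Intensity (log axis, arbitrary units) of 10 ligands on each array, with circles for replicate 1, triangles for replicate 2 and bars for group means of 2 arrays. Levels may be compared within a gene only. The groups are separate for each gene, but lack of overlap was among the grounds for choosing genes to print. Over all genes tested, 23.6% lay above and 22.2% below without overlap. Ccl3 lies at 3.57 and 2.81 in wild type and at 51.2 and 38.8 in floxed lungs.

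The ligands that recruit monocytes and macrophages were all above the wild type level, and none passed the test. Ccl2, the main ligand of Ccr2 on inflammatory monocytes, read 13.7 and 15.4 against 31.1 and 45.7. Its log2 fold change was 0.82 ± 0.16 SE (limma adjusted p = 0.0650), and 1.01 without floxed replicate 1, where it passed (0.0298). Ccl12, a further Ccr2 ligand of the mouse, read 61.3 and 53.4 against 107 and 89.2 (0.64 ± 0.14 SE, adjusted p = 0.0931). For Ccl2, which reached the filter only through its floxed mean, and for Ccl12, each floxed array exceeded each wild type array.

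Ccl6, a chemokine abundant in macrophages, read 1279.5 and 1453 in wild type, against 2889 and 2016 in floxed lungs. Its log2 fold change was 0.82 ± 0.19 SE (adjusted p = 0.113), and its other probe set gave 0.67. Without floxed replicate 2 it passed, at 1.07 (adjusted p = 0.0259), and without floxed replicate 1 it stood at 0.56. Ccl8 read 167 and 161 in wild type against 491 and 218, without overlap, and the size of its difference rested mainly on floxed replicate 1. Its log2 fold change of 0.94 ± 0.33 SE (adjusted p = 0.260) became 0.38 without floxed replicate 1 and 1.496 without floxed replicate 2 (adjusted p = 0.265 and 0.00616). Ccl9, a ligand of Ccr1 like Ccl6, stood at 0.54 ± 0.15 SE (adjusted p = 0.164), while its second probe set gave -0.02. Ccl7 was below the filter, with 12.3 and 11.7 against 23.6 and 17.3.

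The genes of these CC ligands lie side by side on chromosome 11 in RefSeq's GRCm38.p6. One run, in the order Ccl2, Ccl7, Ccl11, Ccl12, Ccl8 and Ccl1, has no other protein-coding gene between its members in that table. A second run, Ccl5, Ccl9, Ccl6, Ccl3 and Ccl4, follows after 25 other protein-coding genes. Both floxed arrays exceeded both wild type arrays for 10 of these 11 ligands, the exception being Ccl11 in the midst of the first run. Over all genes of the table that share was 21.9%. Ccl1, a ligand of Ccr8 made by activated T cells, was not tested, with 3.29 and 1.97 in wild type, against 32.1 and 17.4 in floxed lungs. In the fit with no filter it had a log2 fold change of 1.11 ± 0.20 SE (adjusted p = 0.156). Outside chromosome 11, the 3 neighbours Ccl22, Cx3cl1 and Ccl17 on chromosome 8 had log2 fold changes of 0.70, 0.36 and 0.26, none of them called.

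**Figure D4:**
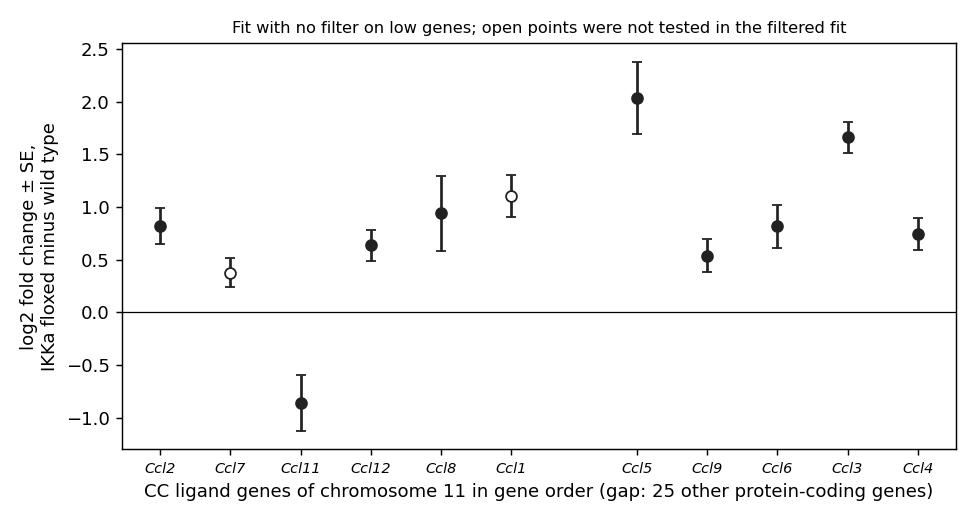
Log2 fold change ± SE of the 11 CC ligands of chromosome 11 in gene order, from the limma fit with no filter, on the log2(intensity + 16) scale. Open points are Ccl7 and Ccl1, below the filter of the main comparison. Ccl11 alone lies under 0, between neighbours that lie above it.

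Promoter sequences show how these genes differ in a κB-like motif, the DNA element that NF-κB binds. RefSeq's promoter table (GRCm38.p6) holds 38 of the 50 members. The 250 bases before each gene's start were searched on both strands for a κB-like motif, GGG, any 3 bases and then TTCC, whose matches on the opposite strands can overlap. A match stood in 8 of the 38 members (21.1%), and in 5.31% of the 27025 genes in the table. The 8 were Ccl1, Ccl20, Ccl9, Ccr3, Ccr6, Cxcl1, Cxcl2 and Cxcl3, and Cxcl1, Cxcl2 and Cxcl3 are related copies that share GGGAATTTCC. Of the 3 members called, Ccl3 has an entry and no match. Ccl3, Ccl20, Ccl9 and Cxcl1 are shown as the called member, the tested member with a match that came nearest the threshold, and 2 ligands with a match that were not called. Each stretch is the 150 bases before the start, 5′ to 3′ on the gene's strand, with κB-like matches of either strand in capitals. Ccl3 lies at chr11:83649379-83649528 (minus strand), Ccl20 at chr1:83116616-83116765 (plus), Ccl9 at chr11:83578637-83578786 (minus) and Cxcl1 at chr5:90891095-90891244 (plus).
Ccl3: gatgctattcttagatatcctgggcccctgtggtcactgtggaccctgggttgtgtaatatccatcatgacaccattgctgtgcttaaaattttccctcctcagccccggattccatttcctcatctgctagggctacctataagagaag
Ccl20: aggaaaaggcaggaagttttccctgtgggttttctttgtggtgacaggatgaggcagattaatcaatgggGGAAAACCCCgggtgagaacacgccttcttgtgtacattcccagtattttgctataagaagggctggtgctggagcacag
Ccl9: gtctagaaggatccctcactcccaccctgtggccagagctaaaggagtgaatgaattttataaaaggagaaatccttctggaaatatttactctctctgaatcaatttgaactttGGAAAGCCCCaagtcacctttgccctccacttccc
Cxcl1: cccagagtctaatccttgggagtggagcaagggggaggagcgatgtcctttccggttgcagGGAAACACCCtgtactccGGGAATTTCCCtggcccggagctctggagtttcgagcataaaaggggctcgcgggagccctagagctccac

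The 8 members with a κB-like match had log2 fold changes between -0.35 for Ccr3 and 1.15 for Ccl20 in the fit with no filter. In Ccl20 the match lies 80 to 71 bases before the start, in Ccl9 35 to 26 bases before it. A match to letters is no evidence of binding, and no match says only that these letters are not in the window.

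Ligands that act on T cells and dendritic cells through Ccr4 and Xcr1 were higher, by 0.26 to 0.70 on the log2 scale, and did not pass. Ccl22, made by dendritic cells and macrophages, read 41.9 and 31.9 against 79.8 and 60.1 (log2 fold change 0.70 ± 0.16 SE, limma adjusted p = 0.118). Its partner ligand Ccl17 gave 148 and 129.8 against 187 and 152 (0.26 ± 0.15 SE, adjusted p = 0.493). Xcl1, secreted by natural killer and CD8 T cells, read 19.3 and 19.9 against 35.2 and 32.4 (0.48 ± 0.12 SE, adjusted p = 0.125). Its receptor Xcr1, found on cross-presenting dendritic cells, read 25.6 and 26.0 against 45.1 and 31.3 (0.36 ± 0.15 SE, adjusted p = 0.356). Both genes of that pair lay higher without overlap, as did 23.6% of all genes tested. Xcl1 reached the filter only through its floxed mean.

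Of the ligands that attract neutrophils through Cxcr2, only Cxcl1 reached the filter, 1 of 4, with 41.5 and 45.0 against 60.1 and 65.8 (0.41 ± 0.12 SE, adjusted p = 0.186). Its 3 probe sets gave 0.41, 0.40 and 1.03, and the one used is of a type whose probes can bind other transcripts. Ccl27a, Ccr9 and Ackr4 were read from probe sets of that type too. Cxcl2, Cxcl3 and Cxcl5 had intensities between 0.417 and 21.3 and were not tested. Cxcr2 itself read 6.58 and 20.5 against 3.26 and 18.6, so its replicates differed more than its groups. Neutrophil markers did not separate the groups, with summed intensities of 8 genes at 758 and 1000.2 in wild type, against 949 and 523 in floxed lungs, and 0 of 3 tested were called.

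The homeostatic and mucosal ligands held the 1 member that fell. Cxcl17, a chemokine of mucosal epithelium, read 505 and 503 in wild type, against 271 and 238 in floxed lungs. Both floxed arrays were lower by a margin wider than the spread within either group. Cxcl17 fell by 0.95 ± 0.12 SE on the log2 scale (1.93-fold lower, limma adjusted p = 0.0187), and its estimate stayed between -1.03 and -0.84 in every alternative fit. It missed the threshold without wild type replicate 1 (adjusted p = 0.0520), without wild type replicate 2 (0.0649), in the unfiltered fit (0.0817) and at a pseudocount of 1 (0.0587). Of 11 airway epithelial markers tested, 5 fell on the same arrays and none rose, against 0.762% of all genes called lower. They ran from Scgb3a1 (-4.29) and Bpifa1 (-4.81) to Reg3g, Bpifb1 and Muc5b. Muc5b and Reg3g were tested only through their wild type mean. The summed intensity of the 12 markers measured was 40803 and 42505 in wild type, against 42924 and 35451 in floxed lungs, with none listed at 0, and their part in the fall of Cxcl17 was not tested.

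Ccl20, an epithelial chemokine that draws Ccr6-bearing lymphocytes and dendritic cells and a known NF-κB target, came nearest the threshold among the rest. It read 35.2 and 19.9 in wild type, against 68.9 and 90.8 in floxed lungs. The groups were separate, and each group's arrays differed from each other by less than the gap between them. Its log2 fold change was 1.15 ± 0.20 SE (adjusted p = 0.0501). It passed in 6 of 12 alternative fits, among them a filter on the mean log2 level (0.0485), added after the data were seen, and the fit without wild type replicate 1 (0.0103). Its receptor Ccr6 read 29.8 and 27.8 against 38.0 and 41.5 (0.31 ± 0.12 SE, adjusted p = 0.303).

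Cxcl13, which forms B cell follicles and is a target of the non-canonical NF-κB route through IKKα, read 183 and 219 in wild type, against 314 and 244 in floxed lungs. The groups did not overlap, but the difference of 0.43 ± 0.16 SE did not pass (95% interval 0.05 to 0.82, adjusted p = 0.296), and its other probe set gave 0.62. Its receptor Cxcr5, carried by B cells and follicular helper T cells, stood slightly lower, at 32.6 and 34.8 against 29.4 and 31.3 (-0.10 ± 0.12 SE, adjusted p = 0.758). Of 8 B cell markers tested none was called, and 2 lay above 0.

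Cxcl16, a membrane-bound ligand of macrophages and epithelium, read 354 and 317 against 531 and 395 (0.43 ± 0.17 SE, adjusted p = 0.311). Cxcr6, its receptor on resident and effector T cells, read 81.1 and 64.6 against 167 and 88.9 (0.65 ± 0.26 SE, adjusted p = 0.328). The Cxcr6 difference came mainly from floxed replicate 1, being 0.25 without it and 1.05 without floxed replicate 2, where it passed (0.0402). Cx3cl1, the endothelial and epithelial fractalkine, had a log2 fold change of 0.36 ± 0.15 SE (adjusted p = 0.335). Its receptor Cx3cr1 on monocytes and macrophages stood at 0.53 ± 0.19 SE (adjusted p = 0.267), with arrays at 49.1 and 58.5 against 103 and 68.5.

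Several steadily made ligands showed no difference that passed the test. Cxcl12, which holds lymphocytes and progenitors through Cxcr4, read 563 and 649.9 against 577 and 690.2, and the groups overlapped (0.06 ± 0.15 SE, 95% interval -0.29 to 0.41). Its sign was negative in 3 alternative fits. Cxcl15, the lung's own epithelial chemokine, read 6211 and 6102 against 7193 and 6254 (0.12 ± 0.13 SE, interval -0.18 to 0.43). Its groups did not overlap and its other probe set gave 0.23, but its sign turned with quantile normalization (-0.05). Cxcl14 and Ccl27a stood at 0.09 and 0.17, and Ccl25, the ligand of Ccr9, at -0.23 ± 0.13 SE (adjusted p = 0.477). Ccl28, a mucosal ligand of Ccr10, was below the filter, with 25.6 and 16.3 against 16.9 and 17.7. Intervals of this width allow changes of up to about 0.4 on the log2 scale in Cxcl12 and Cxcl15.

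Of the 10 signalling receptors tested 9 lay above 0 (median 0.32), against 6369 of the 12735 genes. None passed, and with 1.77% of all genes called that count is near the background. Ccr1, a receptor of Ccl3, Ccl5, Ccl6 and Ccl9, read 84.0 and 86.4 in wild type, against 111 and 81.3 in floxed lungs. Its groups overlapped (0.13 ± 0.16 SE, 95% interval -0.24 to 0.51, limma adjusted p = 0.757), and its second probe set gave -0.36. Ccr2, the receptor of Ccl2 and Ccl12 on monocytes, read 219 and 205 against 292 and 212.0 (0.22 ± 0.17 SE, adjusted p = 0.621), with its other 3 probe sets between 0.14 and 0.26. For both receptors floxed replicate 1 was the highest array and floxed replicate 2 lay inside the wild type range or just below it.

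Ccr7, which brings dendritic cells and naive T cells to lymph nodes, read 48.7 and 38.6 against 62.8 and 68.7 (0.46 ± 0.14 SE, adjusted p = 0.194). Cxcr4 read 266 and 227 against 293 and 332 (0.32 ± 0.14 SE, adjusted p = 0.356). In both genes each floxed array exceeded each wild type array, by less than the test required. Ccr9, a receptor of gut-homing lymphocytes, stood at 0.26 ± 0.20 SE, with floxed replicate 2 alone high at 52.6 and its other 4 probe sets between -0.20 and 0.18. The remaining 6 receptors were below the filter. Ccr3, the eotaxin receptor and a receptor of Ccl5, read 10.4 and 7.40 against 5.84 and 1.51, Ccr4 read 3.90 and 3.77 against 5.11 and 5.78, and Ccr10 read 2.09 and 8.67 against 21.3 and 14.3. Ccr8, Ccr1l1 and Cxcr2 overlapped between the groups.

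Of the 4 scavenging receptors 2 lay above 0 and none passed, a count near the background of 1.77%. Ackr2, which degrades inflammatory CC ligands, read 471 and 442 in wild type, against 387 and 417 in floxed lungs (-0.18 ± 0.12 SE, 95% interval -0.47 to 0.11, adjusted p = 0.569). Ackr3, which takes up Cxcl12, read 761 and 917 against 739 and 750.0 (-0.16 ± 0.14 SE, adjusted p = 0.652). Both were lower without overlap, at a size that did not pass. Ackr1, of red cells and venules, stood at 0.05 and Ackr4 at 0.16, where the groups overlapped, and the 3 probe sets of Ackr4 ran from -0.60 to 0.22.

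The floxed arrays did not agree on how far the ligands stood above wild type. Among the 24 members without overlap and higher, floxed replicate 1 exceeded floxed replicate 2 in 17, and among all genes of that kind this share was 55.8%. Over all 37 members it was 23, against 51.0% of all genes. Ccl5, Ccl8, Ccl6, Ccl4 and Cxcr6 followed that order, while Ccl2, Ccl20, Cxcl1, Ccr7 and Cxcr4 were higher on floxed replicate 2. Of 18 members with several probe sets, 7 had probe sets on both sides of 0.

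Of 35 tested genes of chemotaxis signalling 1 rose and none fell, near the background of 1.01% and 0.762%, and 26 lay above 0 (median log2 fold change 0.17). That gene was Rgs1, a brake on G protein signalling in lymphocytes, with 42.5 and 33.5 against 81.2 and 72.6 (0.79 ± 0.14 SE, limma adjusted p = 0.0496). Leaving out any of the 4 arrays ended its call, as did a block for the replicate number. Its relative Rgs16 stood at 0.67 (adjusted p = 0.0567), and Dock2, which drives lymphocyte migration, at 0.52 (adjusted p = 0.105).

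Among 15 tested chemoattractants and receptors that bear other symbols, 1 rose and none fell, against 1.01% and 0.762% of all genes. Fpr2, a formyl peptide receptor of phagocytes, read 202 and 179.8 against 420.1 and 430.1 (1.10 ± 0.12 SE, adjusted p = 0.00969). The platelet chemokines Ppbp and Pf4 stood at -0.97 ± 0.17 and -0.40 ± 0.13 SE (adjusted p = 0.0506 and 0.241). The count in this list was 2 with a pseudocount of 64, a filter at the 50th percentile or the mean of all probe sets. It was also 2 with an intensity trend and robust prior, and with the filter on the mean log2 level. Quantile normalization, a pseudocount of 1 and a block for the replicate number left it at 1, and the fit with no filter at 0.

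None of 15 tested genes of lymphoid tissue and non-canonical NF-κB signalling was called, near the background of 1.77%, and 12 lay above 0 (median 0.21). Ltb, a lymphotoxin chain that drives that route, had the highest moderated t and stood at 0.57 ± 0.16 SE (adjusted p = 0.182). Of 21 canonical NF-κB targets outside the chemokines, Il12b rose (0.87 ± 0.12 SE, adjusted p = 0.0210), though it was tested only through its floxed mean, and Ltf, the lactoferrin of glands and granules, fell by 1.08 ± 0.18 SE (adjusted p = 0.0467). Neither was called without wild type replicate 1 or without floxed replicate 1. Of the 21 NF-κB targets 17 lay above 0 (median 0.23). Over all genes tested, 1.01% were called higher and 0.762% lower. Of 17 interferon-gamma response genes outside the chemokines 13 rose and none fell (median 1.39), as with Tap1 (1.68), Gbp6 (2.47) and Gbp2 (1.79). With no filter 8 of these were called, and none of Rgs1, Fpr2, Il12b and Ltf.

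Markers of cells that make or follow these chemokines also differed between the groups. The counts below stand beside 1.01% of all genes tested called higher and 0.762% called lower. A marker that reached the filter through 1 group alone is bound to differ that way, which holds for Cd5, Il2rb, Prg2, Adipoq, Retn, Myh6 and Ryr2. Of 8 T cell markers tested 4 rose (Icos, Cd8b1, Cd3g and Cd5), and the summed intensity of the 11 measured was 408 and 366 in wild type, against 939 and 729 in floxed lungs. For natural killer and cytotoxic cells 2 of 11 rose (Nkg7 and Il2rb), with sums of 834 and 760.0 against 1539.8 and 1100.1. Monocyte and interstitial macrophage markers rose in 3 of 12 (Fcgr4, Fcgr1 and C1qb), with sums of 16723 and 16776 against 21952 and 18988. Dendritic cell markers, a list that holds Ccl17, rose in 2 of 10 (Cd74 and H2-Ab1), with sums of 3839 and 3152 against 7188 and 6283. Plasma cell markers rose in 3 of 9 (Igha by 3.66, Jchain by 3.79 and Mzb1 by 1.61 on the log2 scale), with sums of 8534 and 8058 against 24182 and 22565, and 2 of 9 were called with no filter. Of eosinophil, mast cell and basophil markers 2 of 11 were tested and 1 rose (Prg2), with sums of 219 and 216 against 277 and 267. Alveolar macrophage markers went both ways, with Marco and Mmp12 higher, Fabp4 lower, and sums of 12032 and 12071 against 14356 and 14232. No intensity in the table is 0, so none of these markers was listed at 0. The part of these cells in the differences of Ccl3, Ccl5 and the monocyte ligands was not tested.

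Other tissue differed as well, and its counts stand beside the 0.762% of all genes called lower. Of 9 fibroblast and smooth muscle markers 3 fell, with sums of 12439 and 13556 against 9479 and 9323, on the arrays where Ccl11, a product of fibroblasts among other cells, was lower. Cardiac muscle markers fell in 7 of 8, with sums of 4355 and 6403 against 622 and 481, and adipose markers in 3 of 4, with sums of 1024 and 757 against 94.0 and 115. Their part in the chemokine values was not tested. Without wild type replicate 2 the T cell, monocyte, dendritic and fibroblast lists each kept a count of 1 called gene. Without floxed replicate 1 the counts were 2 for T cells, 0 for natural killer cells, 1 for monocytes and 1 for fibroblasts, and without floxed replicate 2 they were 5 for monocytes and 1 for fibroblasts. With no filter none of the T cell, natural killer, monocyte or dendritic markers was called, and the counts were 1 for fibroblasts, 3 for airway epithelium, 5 for cardiac muscle and 1 for adipose tissue. A block for the replicate number left 1 fibroblast marker called.

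**Figure D5:**
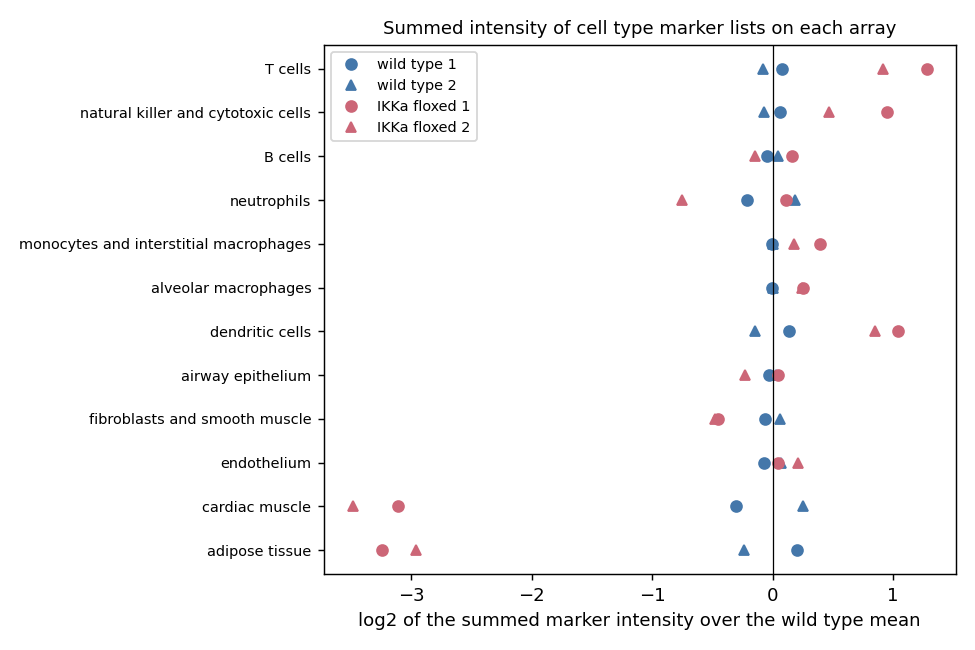
Summed intensity of selected marker lists on each array, as log2 of the ratio to the wild type mean, with circles for replicate 1 and triangles for replicate 2. Lists not drawn include the plasma cell, eosinophil and alveolar epithelial markers. T cell, cytotoxic and dendritic sums lie above wild type on both floxed arrays, cardiac and adipose sums lie far below, and the B cell, neutrophil and airway sums do not separate the groups.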

How the data were processed

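Lung RNA of 4 samples (2 wild type, 2 IKKa floxed, grouped by their titles) was measured on 1 Affymetrix array each, and this number limits the precision. Per the submitters' processing notes, the authors used Affymetrix Expression Console. Its version and algorithm: not given in the sources used here. The deposited intensity values are linear, and every array has the same mean of 150.001 after 2% was trimmed from each end.

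Of 45101 probe sets, 34945 outside the array controls had 1 symbol, 932 had several and 9160 had none listed. Symbols were checked by Entrez number against RefSeq (GRCm38.p6), where 34754 matched and 0 changed. Array medians differed by at most 0.0646 on the log2 scale, so no further scaling was applied. The main filter was the 30th percentile of mean intensity. Values were fitted as log2(intensity + 16) by lmFit and eBayes of limma 3.58.1, under R 4.3.3 (4.67 prior and 2 residual degrees of freedom, two-sided). Fold changes on this scale understate those of low genes. An exact permutation test of 2 against 2 cannot go below p = 0.333 and was not used. The procedure was tested on simulated data.

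Intensities of every array were to be given for called members, for the 6 per direction with the largest differences without overlap, for members called under an alternative, for the 4 with the highest mean and for receptors or ligands of called members. Other members were added after their values were seen. Members and lists were chosen with earlier results of these data known.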

Additional observations from a re-analysis of the deposited data

How the results depend on the processing

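The estimates of 17 of the 37 members tested were compared under up to 13 alternatives, and the tally that follows covers these 17 alone. Of 213 such values, 184 kept direction and side of the threshold, 16 passed anew, 7 lost the call and 6 changed sign. The sign changes were Cxcl15 with quantile normalization (-0.0512), Cxcl12 under the mean over probe sets (-0.0904), without wild type replicate 1 (-0.0417) and without floxed replicate 2 (-0.0672, with 0.1856 as the highest value when 1 array was left out), and Ccr1 under the mean over probe sets (-0.1129) and without floxed replicate 1 (-0.056, with 0.3256 as the highest). None of those values was called. The count of members called was 3, and it was 1 with a pseudocount of 1, 5 with a pseudocount of 64, 1 with no filter, 6 when each gene was the mean of its probe sets, and 2 to 8 when 1 array was left out. The count over all genes was 225, and it was 110 with a pseudocount of 1, 362 with a pseudocount of 64, 69 with no filter, 388 with an intensity trend and robust prior, and 145 to 251 when 1 array was left out. With the replicate number as a block, 198 genes and the same 3 members were called. Deviations of same-numbered arrays correlated at 0.00 over the genes tested, which does not show whether the arrays were paired in the experiment. With no filter more genes are tested, and otherwise the cause was not tested. The filter on the mean log2 level was added after the data were seen. Low intensities have no stated floor, which limits Ccl3, Ccl1 and the other members near the bottom of the scale.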
